A study of Mus musculus with 6 samples.

Results

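The genes described here drive cells through mitosis and guard chromosome segregation, and they were followed in mouse URE leukaemia cells carrying a hairpin against Hlx or a control hairpin. The list holds 33 genes chosen for their known part in mitosis: the mitotic cyclins and their kinase, the Aurora and Polo kinases, the spindle checkpoint, the kinetochore, the spindle motors, and the proliferation markers Mki67 and Top2a. A gene was measured by the probe set whose annotation names that gene alone, and by the probe set with the highest mean where it had several. This gave values for 32 of the 33, among 19938 genes in all. Ccnb1, which encodes cyclin B1, had no probe set under its name and was not analysed here.

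RNA came from 6 samples of URE cells, a leukaemia line. As background, the line derives from mice that lack an upstream regulatory element of Spi1, the gene of the myeloid factor PU.1, and both groups share that defect. Both groups were transduced with a pSIH1-H1-copGFP lentiviral vector and sorted for its green fluorescent protein. The shControl group (3 arrays) carried a hairpin against luciferase and the shHLX group (3 arrays) a hairpin against the homeobox gene Hlx. The labels give a single hairpin name for each group and no batch. They do not say whether the replicates were separate transductions. The p-values here therefore rest on the variation among these arrays alone, and that variation may be technical. The study asked what Hlx does in blood cell differentiation and in tumour formation.

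Entry into mitosis is driven by cyclin-dependent kinase 1 bound to cyclins A2, B1 and B2, with Aurora and Polo-like kinases acting on the centrosomes, centromeres and midzone. The spindle checkpoint, built from Mad and Bub proteins with the kinase encoded by Ttk, holds the anaphase-promoting complex inactive until every kinetochore is attached to microtubules. Many of these genes are transcribed late in the cell cycle, and in resting cells the DREAM complex represses them through the CHR, a promoter element with the core TTTGAA or TTTAAA, while the factor NF-Y acts on CCAAT boxes nearby.

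The proximal promoters are shown first because many members, though not all, carry those elements. A window from 250 bases before to 50 after the gene start was found in RefSeq sequence (assembly GRCm38.p6) for 26 of the 33 genes. Aurkb, Ccna2, Cdc25c, Dlgap5, Foxm1, Kif20a and Tpx2 were not matched. Both strands were searched. TTTGAA stood in the window of 18 of the 26 genes (69.2%), against 17.9% of all 32851 windows. TTTAAA stood in 8 (30.8%, against 13.2%), and CCAAT in 21 (80.8%, against 37.4%). Only 1 pair of matches to different motifs overlapped. In 17 genes a TTTGAA lay within 50 bases of the start. These matches are descriptions of letters and not tests of binding, and several members have more than 1 match.

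The 150 bases before the start are given for Bub1b, the gene that changed, for its paralogue Bub1, which was not called, and for Ccnb2 and Cdk1 as 2 core genes of mitotic entry. They lie at chr2:118598061-118598210 on the plus strand for Bub1b, chr2:127831860-127832009 on the minus strand for Bub1, chr9:70421555-70421704 on the minus strand for Ccnb2 and chr10:69352913-69353062 on the minus strand for Cdk1. Each reads 5′ to 3′ along the gene, with matches to the 3 motifs on either strand in capitals.
Bub1b: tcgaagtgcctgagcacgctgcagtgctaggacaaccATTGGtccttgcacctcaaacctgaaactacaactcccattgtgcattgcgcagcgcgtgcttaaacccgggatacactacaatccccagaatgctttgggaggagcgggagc
Bub1: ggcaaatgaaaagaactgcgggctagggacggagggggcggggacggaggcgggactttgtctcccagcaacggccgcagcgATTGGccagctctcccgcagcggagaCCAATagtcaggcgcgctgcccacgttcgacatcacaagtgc
Ccnb2: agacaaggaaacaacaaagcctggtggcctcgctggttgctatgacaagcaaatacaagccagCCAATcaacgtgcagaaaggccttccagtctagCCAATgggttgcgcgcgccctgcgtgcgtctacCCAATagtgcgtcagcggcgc
Cdk1: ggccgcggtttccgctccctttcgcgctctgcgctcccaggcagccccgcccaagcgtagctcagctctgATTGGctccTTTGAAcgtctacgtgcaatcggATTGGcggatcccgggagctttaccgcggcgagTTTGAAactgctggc

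Bub1b had a single CCAAT match, in the reverse orientation with its first base at -113, counted from the start. Bub1 had CCAAT matches at -68 and -42 and no TTTGAA or TTTAAA in its window. Ccnb2 had 3 CCAAT boxes, at -87, -54 and -21, and TTTGAA at -167 and 5, both outside the stretch shown. Cdk1 had TTTGAA at -71 and -15. It also had CCAAT matches in the reverse orientation at -208, -80 and -48, the first outside the stretch shown.

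In several members the TTTGAA fell close to the start, after it in Bub1b, Plk1, Aurka, Ccnb2, Cenpa and Kif23 and before it in Cdc20 and Kif11, so short stretches around it are shown as well, with the 6 bases in capitals. They lie at chr2:118598242-118598260 on the plus strand for Bub1b, chr7:122159456-122159479 on the plus strand for Plk1, chr2:172370524-172370547 on the minus strand for Aurka, chr9:70421536-70421559 on the minus strand for Ccnb2, chr4:118437347-118437370 on the minus strand for Cdc20, chr5:30666893-30666916 on the plus strand for Cenpa, chr19:37376354-37376377 on the plus strand for Kif11 and chr9:61946783-61946806 on the minus strand for Kif23. Kif11 carries the motif on the other strand, where it reads TTCAAA along the gene.
Bub1b: gacgttaaaTTTGAAactt
Plk1: agcgccgcgTTTGAAttcggggag
Aurka: aggagaaccTTTGAAttgtaacgg
Ccnb2: ggcgcggtaTTTGAAtcgcggacc
Cdc20: cagttgggtTTTGAAggagccaat
Cenpa: gggtgatttTTTGAActgctggcg
Kif11: tctccatttTTCAAAattgaggcg
Kif23: attggcctgTTTGAAatgcgccgg

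In Bub1b the motif began at base 41 of the transcript, and in Plk1 and Aurka at bases 31 and 33. These genes were shown because they carry the motif, so the stretches give no comparison of genes with and without a change.

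The label of the knockdown was checked at Hlx itself. Its signal ranged from 10.12 to 10.21 on the shControl arrays and from 10.06 to 10.17 on the arrays labelled shHLX. The difference (-0.07) was not called by limma (adjusted p = 0.479), and a two-sided exact permutation test gave p = 0.2, where this design can reach 0.1. The direction of every comparison below rests on the labels. Of 11 myeloid progenitor markers, 10 lay above the median signal of all genes, the exception being Ptprc. Called lower on shHLX, against 2.43% of all genes, were 3 of the 11: Kit (-0.73), Mpo (-1.46) and Csf2ra (-0.42). Their part in the results below was not tested. Of the markers of T cells, B cells, red cells, stroma and megakaryocytes, 4 of 21 lay above that median. Of the 21, 0 were called by limma, against 6.18% of all genes, and 1 had an unadjusted p under 0.05, against 19.4%. Without variance moderation, 0 were called.

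Bub1b, which encodes the checkpoint kinase BubR1 that binds and inhibits the Cdc20-bound anaphase-promoting complex, was the member that fell. Its log2 signal was 10.51, 10.52 and 10.55 on the shControl arrays and 9.87, 9.98 and 9.86 on the arrays labelled shHLX. Every shHLX value lay below every control value, with a gap of 0.53 between the groups, while the SD was 0.02 in the controls and 0.067 with the Hlx hairpin. The signal was 1.54-fold lower (95% confidence interval 1.43 to 1.67, limma adjusted p = 0.000244 over all genes, n = 3 arrays per group). In bulk RNA, fewer cells that express a gene and less of its RNA per cell cannot be told apart.

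The other 31 members were not called. Of the 32 measured, 1 fell (limma, adjusted p under 0.05), against 2.43% of all genes, and 0 rose, against 3.75%. Together this was 3.12% of the members, against 6.18% of all genes. At an unadjusted p under 0.05 the count was 2 (6.25%, against 19.4% of all genes), and the unmoderated test also called 1. The groups did not overlap for 7 members (21.9%, against 26.2% of all genes), of which 3 were higher (all genes 14.7%) and 4 lower (all genes 11.4%). The members' share of calls is therefore not above the background. Their median log2 difference was -0.0037, beside -0.011 over all genes. All 32 lay above the median signal of all genes. Over the 8688 genes at or above the signal of the dimmest member, the median was 0.022. The groups did not overlap for 41.0% of those 8688 genes.

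**Figure D1:**
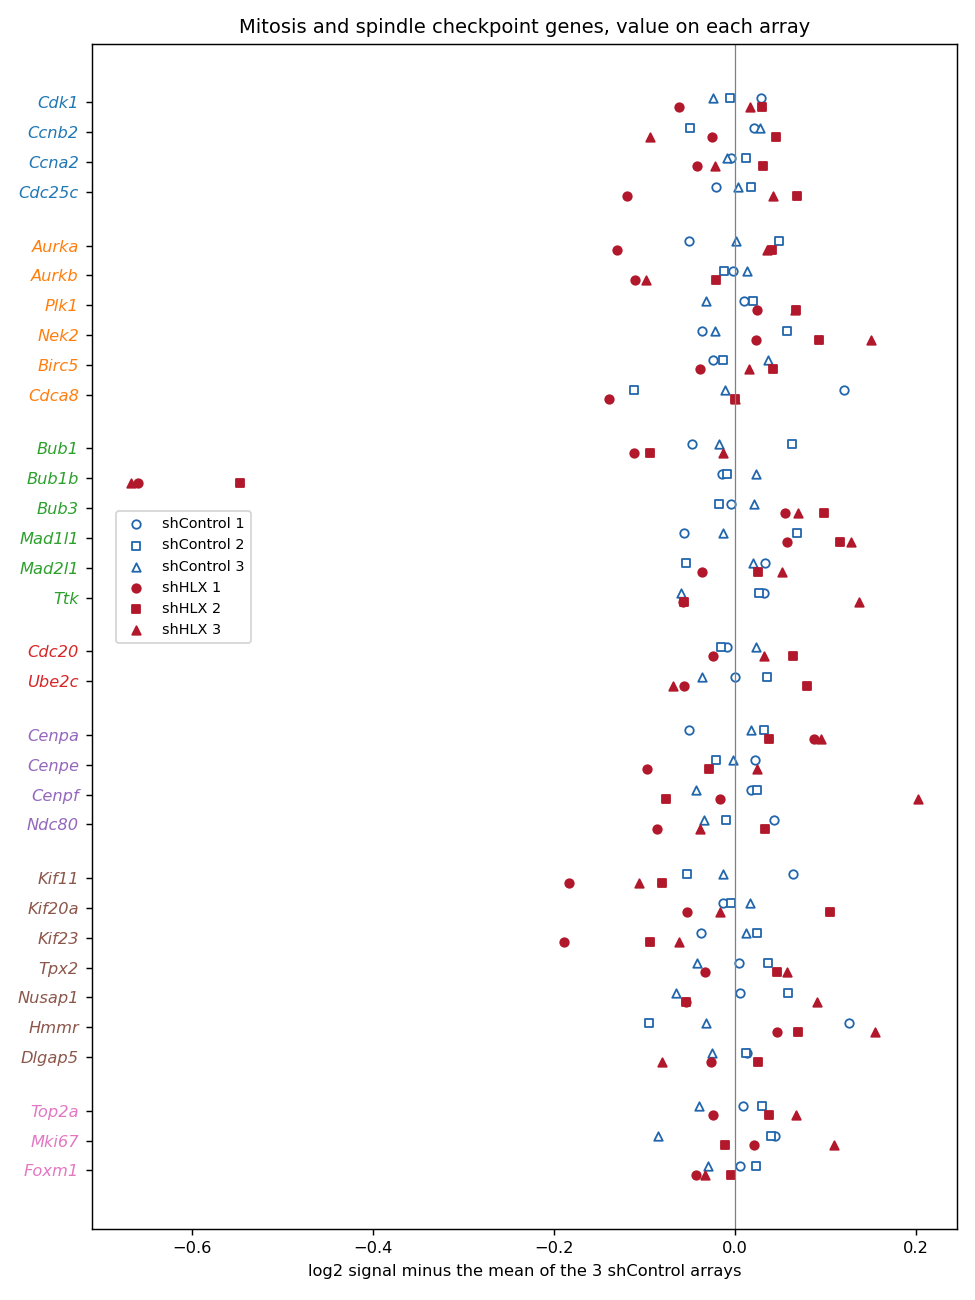
Each row is 1 gene and each symbol 1 array, drawn as its log2 signal minus the mean of the 3 shControl arrays (open blue symbols shControl, filled red symbols shHLX, gene names coloured by role). Bub1b stands 0.62 below the controls on average, while the values of the other 31 genes stay within a range of 0.279 over the 6 arrays.

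The other checkpoint genes were not called. Bub1, whose kinase marks centromeres and recruits BubR1, gave 10.98, 11.09 and 11.01 on the controls against 10.92, 10.93 and 11.01 on shHLX. The highest shHLX value lay above 2 of the 3 control values, and the difference of -0.07 was not called (limma adjusted p = 0.485). Bub3, the partner that carries Bub1 and BubR1 to kinetochores, gave 11.22, 11.21 and 11.24 against 11.28, 11.32 and 11.29. Its groups did not overlap, but the gap was only 0.034 and the difference of 0.07 was not called (limma adjusted p = 0.373). Mad1l1, whose product anchors Mad2 at unattached kinetochores, gave 9.32, 9.45 and 9.37 against 9.44, 9.50 and 9.51, a difference of 0.10 (limma adjusted p = 0.319). Mad2l1, the gene of Mad2, differed by 0.01, and its interval allows from 93.6% to 109% of the control signal. Ttk, which encodes the kinase Mps1 that starts checkpoint signalling, differed by 0.008 with values from 9.11 to 9.31. Of the 6 checkpoint genes, Bub1b alone passed the threshold.

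Differences were small and uncalled for the genes that push cells into mitosis. Cdk1, the mitotic kinase, gave 11.98, 11.95 and 11.93 on the controls against 11.89, 11.99 and 11.97 on shHLX. The shHLX arrays included both the lowest value and the highest, and the interval of the difference runs from 92.7% to 107% of control (limma adjusted p = 0.969). Ccnb2, which encodes cyclin B2, gave 12.01, 11.94 and 12.02 against 11.96, 12.03 and 11.90 (limma adjusted p = 0.845). Ccna2, the cyclin of S phase and mitotic entry, varied by only 0.0719 over the 6 arrays. Cdc25c, a phosphatase that activates Cdk1, was the dimmest of the 32 probe sets, at 7.92, 7.96 and 7.95 against 7.82, 8.01 and 7.98, and its interval runs from 90.9% to 110% of control. For this group the 4 differences lay between -0.024 and -0.0028.

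Among the mitotic kinases and the chromosomal passengers, 0 of 6 genes were called. Aurkb, the catalytic subunit of the passenger complex, which corrects faulty attachments, gave 12.09, 12.08 and 12.10 against 11.98, 12.07 and 11.99. The groups did not overlap, by 0.0096, and the difference of -0.08 was not called (limma adjusted p = 0.398). Aurka, the centrosomal Aurora kinase, differed by -0.02, with shHLX 1 (9.96) below the other 5 arrays (10.04 to 10.14). Plk1, the Polo-like kinase of centrosomes and cytokinesis, gave 11.73, 11.74 and 11.69 against 11.75, 11.79 and 11.79. Its groups were separated by 0.0034, and the difference of 0.05 was not called (limma adjusted p = 0.542). Nek2, which splits the centrosomes, differed by 0.09 (limma adjusted p = 0.403) with groups that overlapped. Birc5 and Cdca8 encode survivin and borealin, which take the complex to centromeres. They differed by 0.006 and -0.05, and Cdca8 was the more variable of them, from 9.83 to 10.06 in the controls alone.

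The genes through which the checkpoint acts were not called either. Cdc20, the activator of the anaphase-promoting complex that BubR1 inhibits, gave 10.74, 10.73 and 10.77 against 10.72, 10.81 and 10.78 (limma adjusted p = 0.812). Ube2c, the ubiquitin-conjugating enzyme of that complex, differed by -0.015 (90.8% to 108% of control). Of the kinetochore genes, Cenpa encodes the histone variant that marks centromeres, Ndc80 the microtubule coupler, and Cenpe and Cenpf a motor and a scaffold of the outer kinetochore. Their differences were 0.07 for Cenpa, -0.03 for Ndc80, -0.03 for Cenpe and 0.04 for Cenpf, with 0 called. Cenpf had the widest range of the 31 uncalled members (0.279), and shHLX 3 at 9.33 stood above the other 5 arrays, which lay between 9.05 and 9.15.

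Some spindle genes came closest to the threshold after Bub1b. Kif11, the motor that pushes the spindle poles apart, gave 11.58, 11.46 and 11.50 on the controls against 11.33, 11.43 and 11.41 on shHLX. All shHLX values lay below the controls, by 0.028, and the signal was 91.8% of control (84.6% to 99.7%), with a limma adjusted p of 0.243. Kif23, a motor of the central spindle that is needed for cytokinesis, gave 9.77, 9.83 and 9.82 against 9.61, 9.71 and 9.74. Its groups too did not overlap, by 0.024, and its adjusted p was 0.261 in limma. When the variance model followed signal intensity, Kif11 was called (limma adjusted p = 0.0448), and Kif23 was not under any alternative. Kif20a, another central spindle motor, differed by 0.01. Tpx2 and Nusap1, whose products nucleate and bundle spindle microtubules, differed by 0.02 and -0.005, and Dlgap5, a microtubule stabiliser, by -0.03. Hmmr, a hyaluronan receptor that also binds the spindle, gave 9.44, 9.22 and 9.28 against 9.36, 9.38 and 9.47. The spread within its control group (SD 0.11) was larger than the difference of 0.09.

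The proliferation markers Mki67 and Top2a did not differ beyond their spread. Mki67, the gene of the Ki-67 antigen, gave 11.94, 11.94 and 11.81 against 11.92, 11.88 and 12.00 (limma adjusted p = 0.749, 94.0% to 112% of control). Top2a, which encodes the topoisomerase that untangles sister chromatids, gave 11.28, 11.30 and 11.23 against 11.25, 11.31 and 11.34. Foxm1, a transcription factor that switches on many late cell cycle genes, had the narrowest range of all members, 0.0671 over the 6 arrays, and differed by -0.03. Proliferation was not measured directly, and transcript levels of a culture that is not synchronised give no rate of division.

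**Figure D2:**
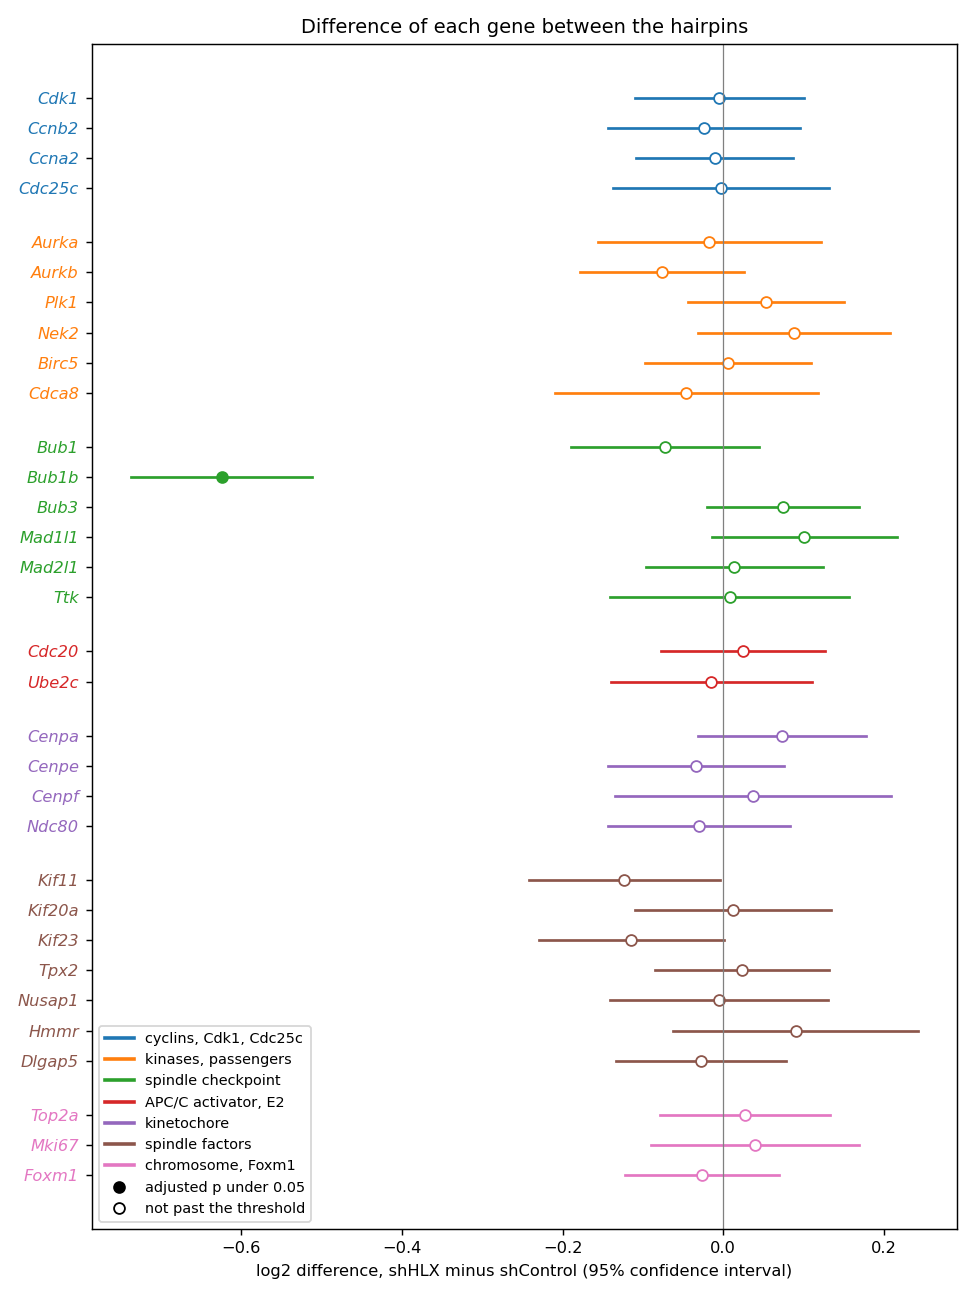
Points are log2 differences (shHLX minus shControl) of the 32 measured genes, with limma's 95% confidence interval as a line and colour for role. The interval of Bub1b lies far to the left of 0, that of Kif11 just misses 0, and those of the other 30 genes include 0.

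The intervals are for 1 gene each and not joint, and they rest on the variation among these arrays, which may be technical. For the 31 uncalled members together they ran from 84.6% to 118% of the control signal. A change of 1.2-fold lay outside the interval of all 31, and a change of 1.1-fold outside that of 11. The median size of the difference was 0.029 on the log2 scale for the 32 members, against 0.069 for all genes and 0.071 for the 8688 genes left by a signal filter set at the dimmest member. The SD between replicates of the median member was 0.051, close to the 0.050 of those 8688 genes. Of the 8688, 9.98% were called.

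**Figure D3:**
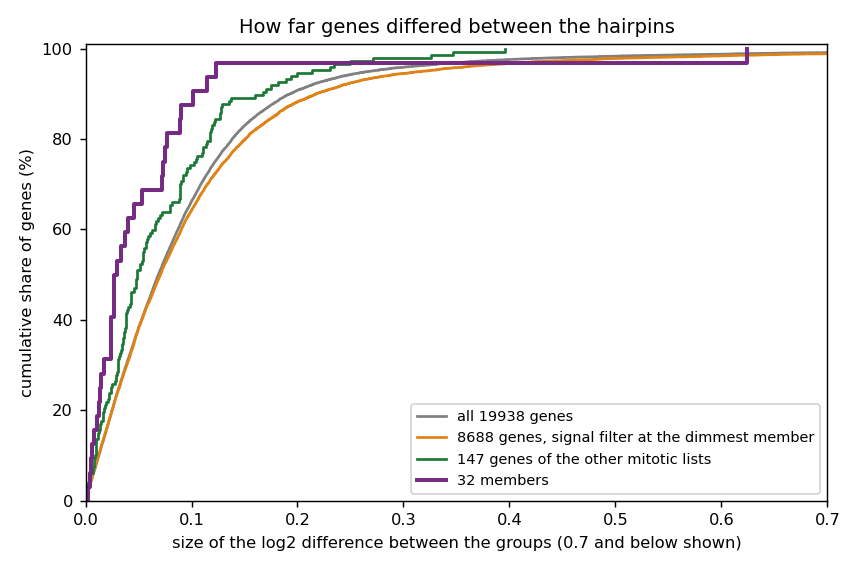
Each curve gives the share of genes (%) whose log2 difference between the groups is no larger than the value on the horizontal axis, for the 32 members, the 147 genes of the other mitotic lists, all 19938 genes, and the 8688 genes left by a signal filter. The members' curve rises first, with a median of 0.029, and its last step at 0.62 is Bub1b.

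Within the shHLX group, most members were lowest on the same array. Without Bub1b, shHLX 1 held the lowest of the 3 shHLX values for 24 of 31 members (77.4%) and the highest for 0. For the 8688 genes of the signal filter it held the lowest for 51.0%. The mean deviation of the 31 genes from their own means was -0.047 on shHLX 1, 0.020 on shHLX 2 and 0.029 on shHLX 3, and 0.0074, 0.0051 and -0.015 on shControl 1, 2 and 3. The control arrays thus lay between the shHLX arrays, and the spread inside the shHLX group was wider than the difference between the groups. Left out in turn, shHLX 1 moved the median difference of the 32 members from -0.0037 to 0.034, and no other array moved it by as much. What set shHLX 1 apart was not tested. Bub1b was lower on all 3 shHLX arrays, and it fell by 0.60 to 0.66 on the log2 scale whichever array was left out (limma adjusted p up to 0.00293).

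**Figure D4:**
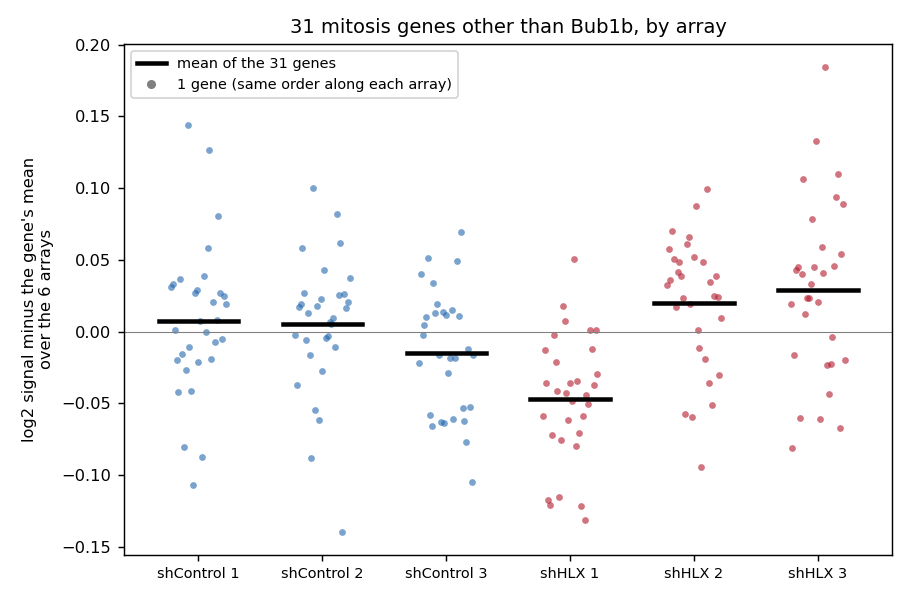
Points are the 31 members other than Bub1b, each as its log2 signal minus its mean over the 6 arrays, and the black bars are the means of the 31 genes on each array. The bar of shHLX 1 is the lowest (-0.047) and that of shHLX 3 the highest (0.029), with the shControl bars between them.

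The genes beside Bub1b on the chromosome were measured to see whether the fall extended to them. The nearest measured genes in the RefSeq table, Bmf on the one side and Pak6 on the other, differed by -0.04 and -0.03 (limma adjusted p = 0.876 and 0.891), with groups that overlapped. Both were dimmer than Bub1b, at percentiles 54.7 and 38.9 of signal against 85.0. Their intervals run from 84.0% to 113% and from 85.5% to 112% of control. Bmf encodes a promoter of apoptosis and Pak6 a kinase. Bub1b had 1 probe set.

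Further genes of mitosis were read from 6 lists outside the members. Of 147 measured genes, 4 rose and 2 fell, or 4.08%, beside 6.18% of all genes. Of the 8688 genes of the signal filter, 9.98% were called. The shares of single lists rest on 3 called genes at most. The share was 13.6% (3 of 22) for the DREAM, E2F and p53 genes. It was 9.52% (2 of 21) for the anaphase-promoting complex and anaphase genes. For the mitotic entry genes it was 4.17% (1 of 24), and for the remaining lists 0%. The median difference of the 147 genes was -0.012, beside -0.011 over all genes and 0.022 over the 8688 genes of the signal filter.

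The 2 that fell act at the entry into mitosis and in the transcription of its genes. Pkmyt1 encodes the membrane-bound kinase Myt1, which holds Cdk1 inactive. It gave 9.55, 9.59 and 9.64 on the controls against 9.22, 9.27 and 9.10 on shHLX, with the groups well apart. It was 1.32-fold lower (limma adjusted p = 0.00499), and it was called whichever array was left out. It was the called gene among 24 other mitotic entry genes. Of these, 6 had an unadjusted limma p under 0.05 (25%, against 19.4% of all genes and 28.1% of the 8688). The groups did not overlap for 11 (45.8%, against 26.2% of all genes and 41.0% of the 8688). The count of 1 depended on the setting. It was 5 above the median of signal, 4 with the intensity trend, 3 with array weights and 2 above the 25th percentile of signal. Mybl2 encodes B-Myb, which joins the MuvB core to activate late cell cycle genes. It gave 9.91, 10.01 and 9.93 against 9.51, 9.72 and 9.57 and was 1.27-fold lower (limma adjusted p = 0.0168). Its call depended on 4 arrays, and leaving out shControl 2, shControl 3, shHLX 1 or shHLX 3 ended it (limma adjusted p = 0.0527 to 0.0702). It was also lost without variance moderation (adjusted p = 0.096 from the unmoderated linear model) and with all probe sets tested (limma adjusted p = 0.065).

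In the same list of 22 measured DREAM, E2F and p53 genes, E2f4 and Rb1 rose. E2f4, the repressive E2F of the DREAM complex, gave 10.64, 10.73 and 10.71 against 11.01, 11.06 and 10.98, a rise of 1.25-fold (95% confidence interval 1.16 to 1.35, limma adjusted p = 0.00554) that held whichever array was left out. Rb1, the retinoblastoma gene, rose 1.16-fold at the edge of the threshold (limma adjusted p = 0.0497), and its call was lost whichever array was left out (up to 0.153). The replicate block (limma adjusted p = 0.0936), the second quantile normalization (0.0704), centring on the median (0.0856), the robust prior (0.0527), no variance moderation (0.106) and testing all probe sets (0.124) each ended it too. Of 21 anaphase-promoting complex and anaphase genes, the subunit genes Anapc16 (1.19-fold, limma adjusted p = 0.0116) and Anapc11 (1.15-fold, limma adjusted p = 0.0346) rose. Anapc16 gave 9.82, 9.82 and 9.80 against 10.10, 10.07 and 10.03, and was lost without shControl 3 or shHLX 1 (limma adjusted p = 0.0663 and 0.0575) and with the replicate block (0.0524). Anapc11 was lost with each array left out in turn (limma adjusted p = 0.0822 to 0.116), with the replicate block (0.102), with centring on the median (0.0579) and with all probe sets tested (0.0874).

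**Figure D5:**
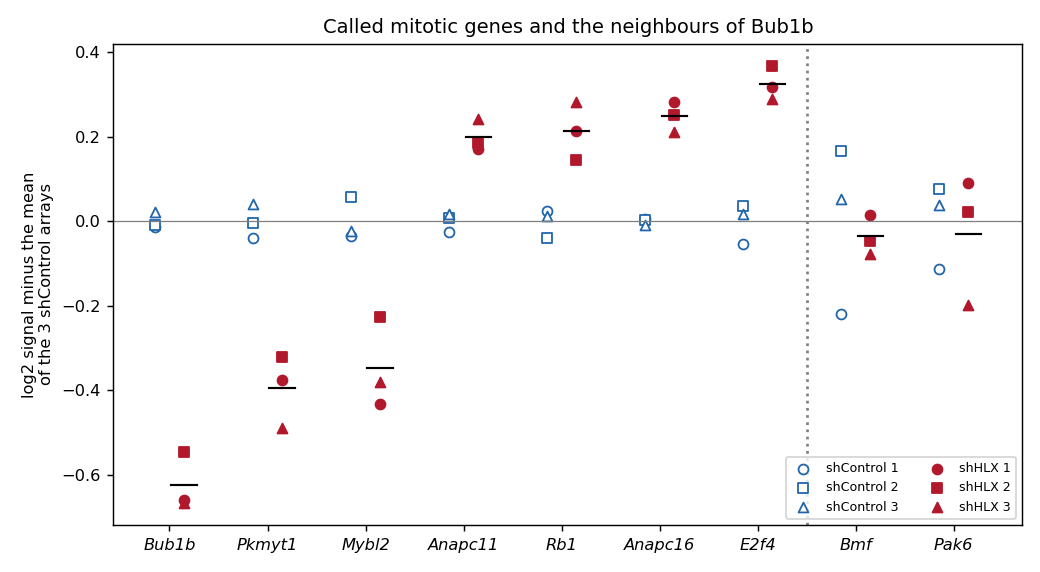
Symbols are single arrays, as log2 signal minus the mean of the 3 shControl arrays (open blue shControl, filled red shHLX), and black lines are shHLX means. Bub1b shows the largest difference of the 7 called genes (-0.62), and the neighbours of Bub1b, right of the dotted line, overlap between the groups.

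The remaining lists held 0 called genes in limma. Of 32 kinetochore and centromere genes, 5 had an unadjusted p under 0.05 (15.6%, against 19.4% of all genes), and the smallest p belonged to Pmf1 (-0.23, limma adjusted p = 0.0602) and Cenph (-0.17, limma adjusted p = 0.0743). Both encode kinetochore subunits. Of 19 cohesin and condensin genes, 2 had an unadjusted p under 0.05 (10.5%), the condensin gene Ncapd2 (-0.13, limma adjusted p = 0.197) and the cohesin release gene Wapl (0.19, limma adjusted p = 0.234). Of 29 other spindle and cytokinesis genes the count was 3 (10.3%), led by the spindle pole gene Numa1 (0.19, limma adjusted p = 0.0949) and the cytokinesis gene Racgap1 (-0.13, limma adjusted p = 0.177). These counts of 0 depended on the setting. With the intensity trend the 3 lists held 3, 1 and 2 calls, among them Pmf1 (limma adjusted p = 0.0032), Ncapd2 (0.0358), Numa1 (0.00597) and Racgap1 (0.0368). Above the median of signal they held 4, 0 and 2. The kinetochore list alone also held 2 calls, Pmf1 and Cenph, after a second quantile normalization and above the 25th percentile of signal, and 1 with array weights, without shHLX 1 or without shHLX 2. Without variance moderation the 3 lists held 0 calls.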

How the data were processed

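The authors deposited log2 signals, 1 column per array, for 35556 probe sets on 6 Affymetrix arrays. Per the submitters' processing notes, the authors used RMA, which corrects background, equalises the arrays' distributions and summarises probes on the log2 scale, with Affymetrix Power Tools. This tends to shrink differences of dim genes, and no detection values were used here. Per the labels' protocols, 10 ng of RNA was amplified before labelling. No source used here gives the genome build.

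Of the probe sets, 21789 named exactly 1 gene in the platform annotation, 1621 named several and 12146 were not listed. The brightest probe set by its mean was kept for the 999 genes with several, which left 19938 genes, with no filter on signal. Of the 21789, 21698 matched RefSeq (GRCm38.p6) by Entrez identifier. The comparison used lmFit and eBayes of limma 3.58.1 (R 4.3.3, two-sided), with Benjamini-Hochberg adjustment over all 19938 genes and a threshold of 0.05. Every adjusted p is from this fit unless another setting is named. Intervals are limma's 95% intervals, errors are SD, and the number of arrays limits the precision. The code was tested on simulated data. Promoter letters were searched in RefSeq windows.

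The members and the lists were chosen with earlier results of these data known, so the members get no test as a set. Named genes are Hlx, all members, the called genes of the other lists (or the 2 with the smallest p where none was called) and the nearest measured neighbours of a called member. Alternatives covered normalization, centring, signal filters, the variance model, array weights, the choice of probe set, all probe sets tested, the threshold, the replicate number as a block, and each array left out.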

Additional observations from a re-analysis of the deposited data

How the results depend on the processing

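Bub1b kept its direction and its call under all 18 alternatives, with log2 differences from -0.66 to -0.60 and adjusted p up to 0.0115, the highest without variance moderation. Not all of the alternatives could have changed its direction. The signal filters, variance models, probe set settings, replicate block and threshold left its difference at -0.62. The looser threshold of 0.10 could not end its call. Of the other 31 members, 30 were called under no alternative. When the variance model followed signal intensity (the trend setting), the members called became 2, both lower, through Kif11. The sign of the difference changed under at least 1 alternative for 16 of the 31, all uncalled and near 0, and their differences lay between -0.15 and 0.15 throughout. The number of all genes called was 1233 and became 2064 among genes above the median of signal, 2261 with the trend and 800 with the replicate block, and it ranged from 698 (without shControl 3) to 901 (without shHLX 2) when 1 array was left out. The number of called genes in the other mitotic lists was 6 and became 16 above the median of signal, 15 with the trend, 11 at an adjusted p under 0.10, 3 with all probe sets tested, 3 with the replicate block and 2 to 5 with 1 array left out. Fewer genes are tested under the signal filters and more with all probe sets. The threshold of 0.10 is applied to the same fit, so it can only add calls. Leaving out an array or adding the replicate block leaves less data to estimate the spread. How much each of these changed the counts was not tested, and neither was the cause of the other changes.

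The replicate numbers were not taken as pairs: the correlations of deviations between same-numbered arrays were -0.17, 0.13 and -0.15. With the replicate number as a block the members called stayed at 1, lower. Hlx stayed uncalled under all alternatives. With 3 arrays per group, differences of the size seen for most members (median 0.029) lie below the SD between replicates.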

Other observations

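Top2a had a second probe set under its own name, which was dim (3.78 to 4.14 on the log2 scale) and differed by 0.08. A further 2 probe sets are annotated to both Top2a and Hibadh, and they differed by -0.03 and 0.0035. The brighter Top2a probe set, chosen for the comparison, differed by 0.03, and the mean of both probe sets under its own name by 0.056.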
